A study of Rattus norvegicus with 4 samples.

Results

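Proximal tubule transcripts were followed in glomerular RNA of rats through 10 genes that encode no solute carrier. They are Kap, Cubn, Amn, Aqp1, Ggt1, Miox, Fbp1, Pck1, Ass1 and Hnf4a, each taken by its symbol from a table of 13261 genes. All 10 were found, each as a protein-coding gene with at least 369 reads in every sample. The genes were chosen from knowledge of the tubule, and Kap was also selected on its measured spread between samples in these same data. Its spread is therefore described here without a test. The question put to the data was whether the other 9 genes followed Kap from sample to sample.

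The samples form a single group of 4, named replicates 1 to 4. They came from male Wistar rats of 150 to 175 g that had received Adriamycin (ADR, doxorubicin) by vein. This anthracycline injures podocytes and produces nephrotic syndrome in rodents. Glomeruli were collected on sieves, a method that retains some tubule fragments. Kidneys in the study were taken on day 11 or 21; the labels do not say which day applies to ADR rats, nor their age or the dose. All 4 samples carry the same treatment, and no untreated rat was analysed here, so no value below is a response to the drug. The labels list 4 separate samples without naming the animals, so the p-values measure only the spread between these samples.

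Proximal tubule cells recover most of what the glomerulus filters. Filtered proteins are taken up by an apical receptor complex in which megalin works with cubilin and amnionless, while the brush border carries peptidases and transporters. The same cells make glucose and arginine and depend on the nuclear receptor HNF4A for their differentiated state. Kap encodes kidney androgen-regulated protein, known in mice as a proximal tubule product whose transcript is raised by androgens.

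Upstream sequences are shown for Kap, because it stood apart, and for 3 of the genes it was compared with, because they hold a motif searched for. They are the 250 bases before an annotated start, from RefSeq on build GRCr8, 5′ to 3′ on the strand of the gene. Kap lies at chr4:168409033-168409282 on the minus strand and Cubn at chr17:81501695-81501944 on the minus strand. Pck1 lies at chr3:182348322-182348571 and Aqp1 at chr4:85812534-85812783, both on the plus strand. Capitals mark matches to the motifs described next.
Kap: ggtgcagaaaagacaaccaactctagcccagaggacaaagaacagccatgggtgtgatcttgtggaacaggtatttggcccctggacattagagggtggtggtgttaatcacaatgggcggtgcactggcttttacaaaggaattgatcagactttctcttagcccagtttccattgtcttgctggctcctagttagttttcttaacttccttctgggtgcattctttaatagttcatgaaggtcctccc
Cubn: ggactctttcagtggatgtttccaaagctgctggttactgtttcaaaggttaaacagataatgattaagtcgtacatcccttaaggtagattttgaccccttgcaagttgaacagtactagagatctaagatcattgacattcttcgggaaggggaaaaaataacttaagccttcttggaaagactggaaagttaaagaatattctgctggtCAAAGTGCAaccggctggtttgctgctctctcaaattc
Pck1: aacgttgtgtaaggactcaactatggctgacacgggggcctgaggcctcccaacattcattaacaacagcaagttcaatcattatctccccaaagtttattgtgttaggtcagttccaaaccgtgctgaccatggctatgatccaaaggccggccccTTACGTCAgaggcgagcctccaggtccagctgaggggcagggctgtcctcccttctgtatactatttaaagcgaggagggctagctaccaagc
Aqp1: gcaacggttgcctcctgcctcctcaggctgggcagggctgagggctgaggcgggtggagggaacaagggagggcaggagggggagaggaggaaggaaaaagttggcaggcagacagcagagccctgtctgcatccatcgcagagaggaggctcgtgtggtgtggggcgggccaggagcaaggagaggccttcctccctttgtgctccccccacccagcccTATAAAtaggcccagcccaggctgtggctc

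A search of both strands covered 3 motifs, in windows found for all 10 genes. The letters CAAAGTNCA, an HNF4 core, matched in Cubn and in 1.06% of the 33469 windows of the same length in the RefSeq table. The cyclic AMP element TTACGTCA matched in Pck1 and in 0.75% of windows. The TATA box letters TATAAA matched in Ass1, Aqp1 and Miox and in 12.9% of windows. In Aqp1 and Miox they lay on the strand of the gene, and in Ass1 on the opposite strand. No match overlaps another in the 4 sequences printed, and the Kap window held none of the 3 motifs. A match describes letters only, and a window without one says nothing about the factor.

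Values are CPM, the reads of a gene scaled to 1000000 reads of its sample, or log2 CPM as deposited. They are not corrected for transcript length, so levels are compared between replicates and not between genes. Total reads ran from 13566962 to 16207027 per sample. Of the glomerular markers listed, 16 of 16 podocyte, 11 of 12 endothelial and 9 of 9 mesangial genes were in the table; tubule genes were in it too, so their presence alone does not check the tissue label. Protein-coding mitochondrial genes took between 7.46% and 12.5% of reads, most in replicate 2.

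Kap (ENSRNOG00000005858) was the most uneven of the 10 genes. It had 2869, 369, 450 and 1248 reads in replicates 1 to 4, or 211, 22.8, 29.3 and 81.9 CPM. Replicate 1 was thus far above the rest, replicate 4 was intermediate, and replicates 2 and 3 were both low. The highest value was 9.29 times the lowest, a ratio given without an interval because Kap was selected on its spread. The range, the highest minus the lowest log2 value, was 3.21, and 99.9% of all genes had a smaller one. Without replicate 1 it was 1.84. The mean was 5.87 ± 1.47 log2 CPM (SD, n = 4).

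The other 9 genes did not share this order. All 9 were lowest in replicate 3, the position of only 19.6% of all genes, and none was lowest in replicate 2, where Kap and 31.5% of all genes had their minimum. Of the 9, 6 were highest in replicate 1, as were 27.7% of all genes, with Miox and Pck1 highest in replicate 2 and Ggt1 in replicate 4. These counts of lowest and highest replicates were chosen after the values were seen. In bulk RNA, fewer tubule cells in a sample and less of a transcript per cell cannot be told apart.

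**Figure D1:**
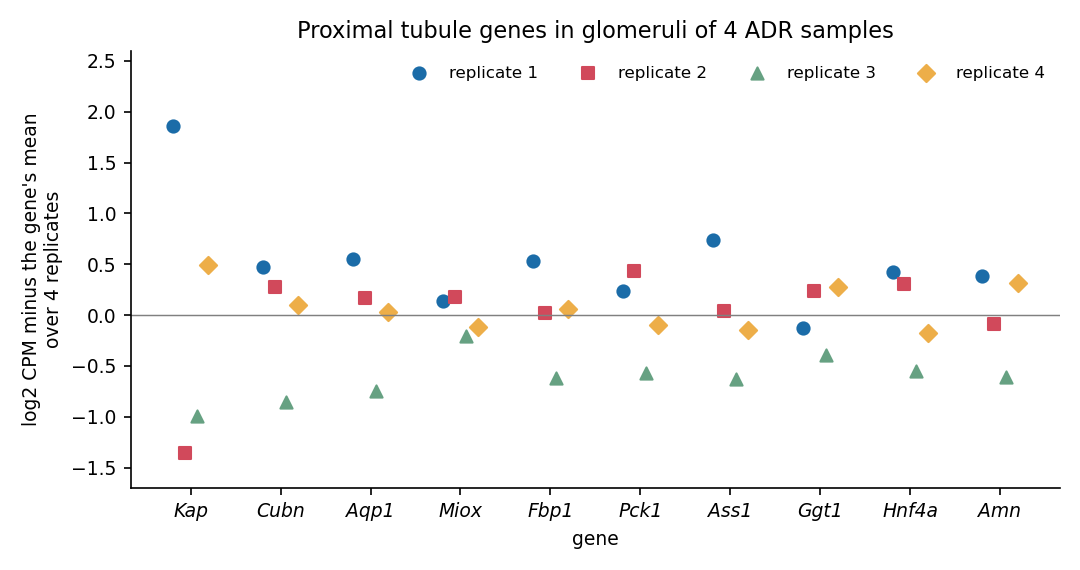
Each point is a gene's log2 CPM in 1 replicate minus its mean over the 4 replicates (vertical axis), for the 10 genes on the horizontal axis. Kap spans 3.21 with replicate 2 lowest, whereas the other 9 genes span 0.38 to 1.37 with replicate 3 lowest.

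The receptor pair for filtered proteins was described first. Cubn (ENSRNOG00000029047), which encodes the ligand-binding receptor cubilin, had 271, 237, 108 and 210 CPM in replicates 1 to 4, and a mean of 7.61 ± 0.59 log2 CPM (SD, n = 4). Replicate 3 was the low sample, and replicate 2 was close to replicate 1. Amn (ENSRNOG00000009050), whose product amnionless carries cubilin to the membrane, had 129, 93.3, 64.8 and 123 CPM, with a mean of 6.63 ± 0.46 log2 CPM (SD, n = 4). Here replicates 1 and 4 lay together and replicate 2 was lower. Between replicates 2 and 3, Cubn differed by 2.20 times (95% exact interval 2.08 to 2.33) and Amn by 1.44 times (1.33 to 1.56). Kap was instead lower in replicate 2, at 0.777 times the level of replicate 3.

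The membrane genes Aqp1 and Ggt1 parted from each other. Aqp1 (ENSRNOG00000011648) encodes the water channel of the proximal tubule, which is also found in the thin descending limb and in vasa recta. It had 422, 323, 171 and 292 CPM and a mean of 8.17 ± 0.55 log2 CPM (SD, n = 4), high in replicate 1 and low in replicate 3. Ggt1 (ENSRNOG00000047697) encodes the brush border enzyme that starts the breakdown of glutathione. Its 96.0, 123.8, 80.1 and 127.2 CPM averaged 6.71 ± 0.32 log2 CPM (SD, n = 4). It was the only gene of the 10 with higher CPM in both replicates 2 and 4 than in replicate 1.

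The enzymes of glucose synthesis kept the low value in replicate 3. Fbp1 (ENSRNOG00000017597), fructose-1,6-bisphosphatase, had 353, 247, 159 and 255 CPM and a mean of 7.93 ± 0.47 log2 CPM (SD, n = 4). Pck1 (ENSRNOG00000028616), the cytosolic phosphoenolpyruvate carboxykinase, had 1264, 1444, 720.9 and 998 CPM and a mean of 10.06 ± 0.44 log2 CPM (SD, n = 4). Replicate 2 was the highest sample for Pck1 and was close to replicate 4 for Fbp1. For Pck1, replicate 1 had 0.875 times the level of replicate 2 (95% exact interval 0.858 to 0.893), against 9.29 times for Kap.

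The remaining enzymes differed most in how far they spread. Ass1 (ENSRNOG00000008837), argininosuccinate synthase of the arginine pathway, had 532, 326, 205.3 and 287 CPM and a mean of 8.31 ± 0.57 log2 CPM (SD, n = 4). Its range of 1.37 was the largest of the 9 and fell to 0.67 without replicate 1. Miox (ENSRNOG00000008694), which opens the breakdown of inositol, had 287, 295, 227 and 241 CPM and a mean of 8.03 ± 0.19 log2 CPM (SD, n = 4). Its range of 0.38 was the smallest of the 9 and near the median of 0.41 over all genes. Hnf4a (ENSRNOG00000008895), the transcription factor of the group, had 260, 239, 132 and 172 CPM and a mean of 7.60 ± 0.45 log2 CPM (SD, n = 4), with replicates 1 and 2 together above replicates 4 and 3.

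Reads of the 9 genes were first set against counting error, which is small for genes this abundant. A chi-square test of reads against Poisson sampling, adjusted by Benjamini-Hochberg over 13261 genes, called 9 of the 9, with a largest adjusted p of 1.63e-41, and called 69.5% of all genes, so the call is common in this table. limma's test of variance above its abundance trend called 0 of the 9 at an adjusted p under 0.05 (adjusted p from 0.912 to 0.989) and 0% of all genes, with a smallest adjusted p of 0.912 in the whole table. A test that singled out no gene does not separate the 9 from genes of like abundance, nor show that they are alike. At an unadjusted p under 0.05 it called 6 of the 9, beside 5.47% of all genes.

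A range of at least 2 times between the highest and lowest CPM was found for 5 of the 9 genes, beside 9.15% of all genes. Pck1 lay just inside at 2.00 times, and Amn at 1.99 and Hnf4a at 1.97 times lay just outside. The number was 7 with median-of-ratios scaling (9.13% of all genes), 2 without replicate 1 (3.85%), 4 without replicate 2 (6.13%), 0 without replicate 3 (5.98%) and 5 without replicate 4 (7.93%).

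The order of replicates was then compared with that of Kap over the 6 pairs of replicates. Fbp1 and Amn matched Kap in 5 pairs, Cubn, Aqp1, Ass1 and Hnf4a in 4, and Miox, Pck1 and Ggt1 in 3. None of the 9 matched in all 6, as 9.43% of all genes did, a share that is under 1 gene in 9. The departures lay in the pairs with replicate 2. With replicate 2 left out, 8 of the 9 had the order of Kap, replicate 1 above 4 above 3, beside 22.6% of all genes, the exception being Ggt1. The count was 0 of 9 without replicate 1 (23.8% of all genes), 2 of 9 without replicate 3 (22.3%, so near the share of all genes) and 0 of 9 without replicate 4 (21.6%).

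The sizes of these differences are given as a description, since Kap was selected on its spread. Replicate 1 exceeded replicate 3 by 2.85 (log2) for Kap, by 1.37 for Ass1, 1.33 for Cubn and 1.30 for Aqp1, and by 0.34 for Miox. On the log2(CPM + 1) scale, Kap stood 0.54 below the mean of the other 9 in replicate 1 (a difference of -0.54). For replicates 2, 3 and 4 the difference was -3.50, -2.41 and -1.56, and its SD was 1.26 (n = 4). The mean of the other 9 itself was 8.27, 8.08, 7.33 and 7.93, so it was lowest in the replicate where Kap was only the second lowest. The share of all reads that belonged to the 10 genes was highest in replicate 1, at 0.383% (95% Wilson limits 0.379% and 0.386%), and lowest in replicate 3, at 0.190% (0.188% and 0.192%). Replicates 2 and 4 lay between, at 0.335% (0.332% and 0.338%) and 0.279% (0.276% and 0.281%).

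Distances between patterns were used to find the genes most like Kap and most like the other 9. Each gene's 4 log2 values were centred on their mean, and the Euclidean distance between genes was taken. Over the 36 pairs among the other 9 it ran from 0.19, for Aqp1 and Cubn, to 1.02, for Ass1 and Ggt1. From Kap to these 9 it ran from 1.93 for Ass1 to 2.63 for Ggt1. Among all other genes, ordered by nearness to Kap, Ass1 took position 457 and Ggt1 position 7640. These distances describe 4 samples and grow with the range of a gene, so those from Kap follow from the spread it was selected on.

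The genes nearest to Kap were Hhip at 0.70, Gm27820 at 0.71, Ank2 at 0.75, Ly6i at 0.83 and Pappa2 at 0.89. Hhip, which encodes a hedgehog-binding inhibitor, had 3313, 728, 962 and 2407 reads in replicates 1 to 4. Ank2, an ankyrin gene, had 126, 26, 40 and 78 reads, and Pappa2, a protease of insulin-like growth factor binding proteins, had 56, 6, 16 and 21. All 5 had the replicate order of Kap. The genes nearest to the mean pattern of the other 9 were Hpn at 0.02, Ndufaf2 at 0.06, LOC100363502 at 0.06, Epcam at 0.07 and Sult1b1 at 0.07. Hpn, the gene of the epithelial membrane protease hepsin, had 1115, 1154, 663 and 980 reads, and Epcam, an epithelial adhesion gene, had 1989, 1965, 1101 and 1682.

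Other proximal tubule lists showed the same low sample as the 9 genes. Of 22 measured transporters, 22 were lowest in replicate 3, beside 19.6% of all genes, and 0 had the order of Kap in all 6 pairs, beside 9.43%. Their mean log2 CPM was 7.08, 6.81, 6.13 and 6.88 in replicates 1 to 4. Their ranges ran from 0.49 for Slc6a18, a neutral amino acid carrier, to 1.66 for Slc4a4, the basolateral bicarbonate carrier, with a median of 1.04. The median over all genes was 0.41. Counting error was exceeded by 21 of the 22, beside 69.5% of all genes, the exception being Slc5a1, a glucose carrier gene named after its value was seen.

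Partners of the 10 genes were read from lists by role, leaving out the 10. In endocytosis, 6 of 6 genes were lowest in replicate 3, where 19.6% of all genes had their minimum. Lrp2, the gene of megalin, had 10.91, 10.14, 9.55 and 10.29 log2 CPM, and ranges ran from 0.77 for Lrpap1, the megalin chaperone, to 1.45 for Cltrn, collectrin. Of 8 further genes of glucose and fructose handling, 7 were lowest in replicate 3 and the smallest range was 0.54, for Khk, ketohexokinase. The exception was Pck2, the mitochondrial isozyme of Pck1, at 5.45 in replicate 1 against 5.89 in replicate 3. Of 21 further enzymes of amino acids and inositol, 19 were lowest there, with ranges from 0.17 for Impa1, an inositol monophosphatase that did not exceed counting error, to 1.44 for Gldc of the glycine cleavage system. None of the genes in these 3 lists had the full order of Kap, beside 9.43% of all genes.

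Brush border peptidases and transcription factors were less uniform. Of 9 further brush border genes, 6 were lowest in replicate 3, beside 19.6% of all genes, and ranges went from 0.52 for Dpp4 to 1.37 for Xpnpep2. Mme, the gene of neprilysin, which podocytes are also known to make, was ordered as Kap at 5.60, 4.27, 4.50 and 5.32 log2 CPM. Of the 8 further genes in the list of transcription factors, 5 were lowest in replicate 3, among them Pdzk1, which encodes a membrane scaffold and not a transcription factor. Hnf4g, the paralog of Hnf4a, had the largest range at 1.35 and Esrra, an orphan receptor gene of energy metabolism, the smallest at 0.21. Esrra was the 1 gene of this list with the order of Kap, but its replicates 3 and 4 were nearly tied, at 6.30 and 6.31 log2 CPM. With 1 gene each, both lists were near the 9.43% of all genes that had this order.

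Genes reported to respond to androgens or other steroids in rodent kidney were read next. Of the 7 measured besides Kap, 0 matched it in all 6 pairs, where the share of all genes was 9.43%. Odc1, ornithine decarboxylase, had the smallest range, 0.26, at 6.45, 6.36, 6.19 and 6.38 log2 CPM. Cyp4a2, a fatty acid hydroxylase, had 9.85, 10.00, 8.86 and 8.67. Fkbp5, a chaperone gene induced by steroid receptors, was highest where Kap was lowest, with 6.28, 7.68, 6.60 and 5.84.

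**Figure D2:**
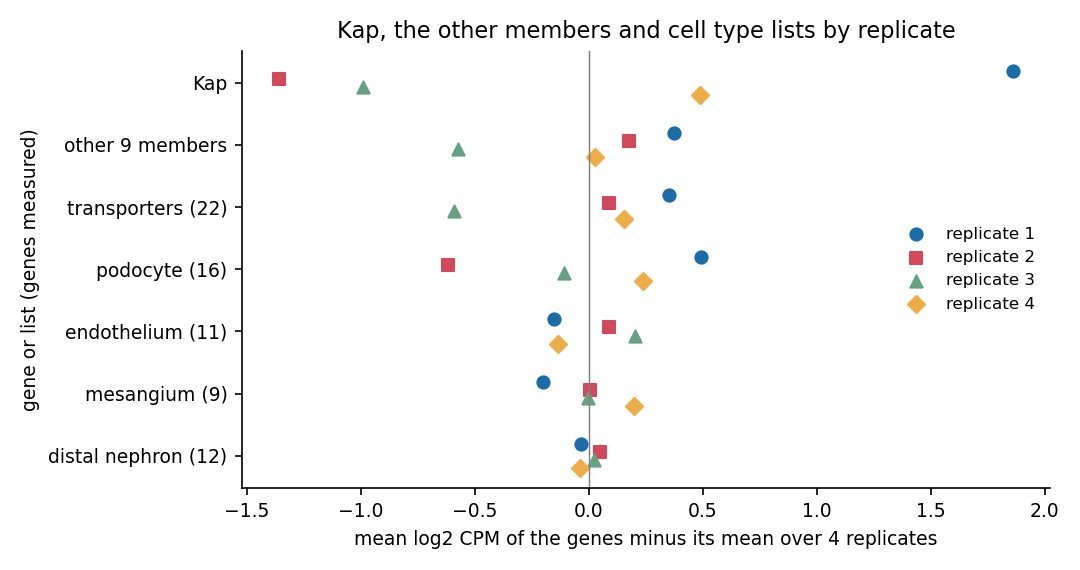
Points give the mean log2 CPM in each replicate minus its mean over the 4 replicates (horizontal axis). Rows are Kap, the mean of the other 9 members and 5 gene lists (vertical axis, genes measured in brackets). The other 9 members and the transporters are lowest in replicate 3, and Kap and the podocyte list in replicate 2.

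Podocyte genes had the replicate order of Kap. Of 16 podocyte genes, 15 matched Kap in all 6 pairs of replicates, beside 9.43% of all genes. All 16 were highest in replicate 1 and lowest in replicate 2, beside 27.7% and 31.5% of all genes. The exception was Foxc2, which also had the smallest range, 0.38; Magi2, a scaffold gene of the slit diaphragm, had the largest, 2.20. Summed over the list, podocyte genes had 12695, 7008, 9290 and 11281 CPM in replicates 1 to 4, and none of the 16 was at 0. With replicate 2 left out, 15 of the 16 matched Kap, and 14 of the 22 transporters did so too, beside 22.6% of all genes. Protein-coding mitochondrial genes took 7.46%, 12.5%, 9.34% and 7.56% of reads in replicates 1 to 4, the reverse of this order. The part of podocyte content, or of the mitochondrial share, in the values of Kap was not tested. The low podocyte level of replicate 2 was already known for these samples when the lists were drawn up.

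**Figure D3:**
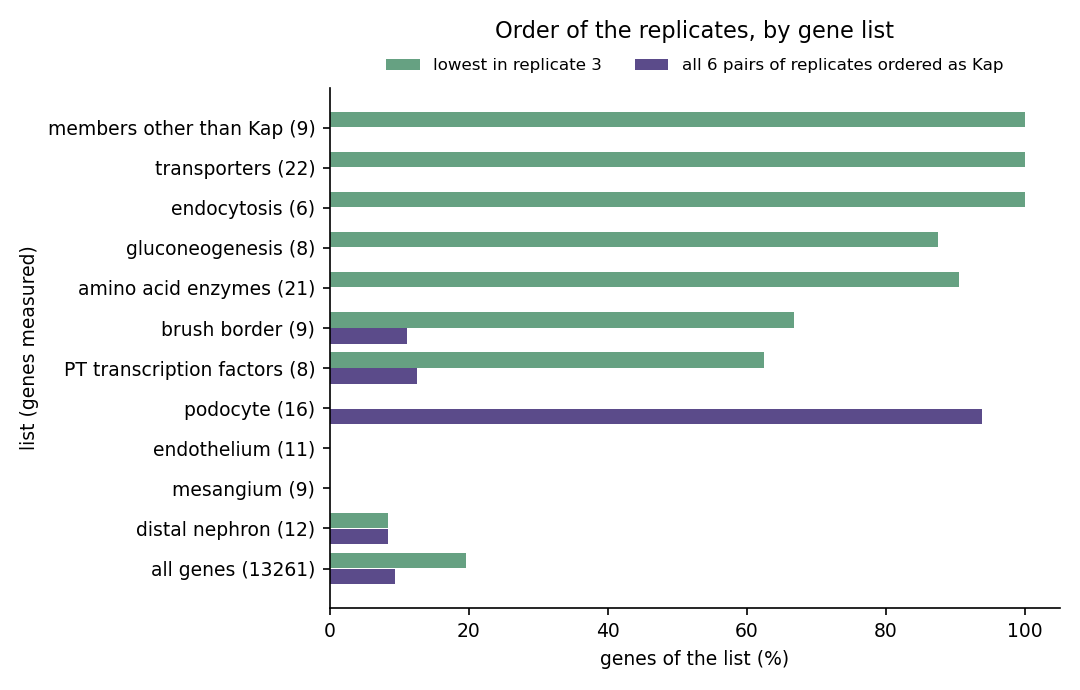
Bars give the percentage of each list's genes (horizontal axis; lists on the vertical axis, with genes measured in brackets and members left out of all but the top and bottom rows) that were lowest in replicate 3 or that matched Kap in all 6 pairs of replicates. Proximal tubule lists reach 62.5% to 100% for the first and at most 12.5% for the second, while the podocyte list stands at 0% and 93.8%.

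Lists of further cell types were near the background in their match to Kap. Of 11 endothelial and 9 mesangial genes, 0 had its full order, beside 9.43% of all genes. In replicate 3, 0 were lowest, beside 19.6% of all genes. The mesangial genes Pdgfrb, Itga8, Gata3 and Cspg4, 4 of the 9, were lowest in replicate 2 as Kap was, beside 31.5% of all genes. All of these but Pdgfrb matched Kap in 5 pairs, but the share of all genes doing so was not computed. Endothelial ranges went from 0.34 for Tie1 to 0.85 for Vwf, and the smallest mesangial range was 0.32, for Cspg4. Of 16 listed genes of the loop, distal tubule and collecting duct, 12 were in the table. Of the 12, 1 was lowest in replicate 3, beside 19.6% of all genes, and 1, Calb1, had the order of Kap, beside 9.43%. Their summed level was 735, 576, 672 and 638 CPM in replicates 1 to 4, of which Umod, the uromodulin gene of the loop, made up the largest part. The list's mean log2 CPM ran otherwise, at 4.52, 4.596, 4.57 and 4.51. Among the 12, ranges went from 0.21 for Slc12a1, the loop cotransporter, to 1.30 for Aqp2, the collecting duct water channel.

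In a step chosen after the values were seen, the transporter mean of each replicate was subtracted from each gene. The SD became smaller for 7 of the 9 genes, and the median SD of the 9 went from 0.46 to 0.23. How many of all genes would shrink in this way was not counted. The 22 transporters, like the 9 genes, were all lowest in replicate 3, so a smaller SD says little by itself. Fbp1 went from 0.47 to 0.13 and Amn from 0.46 to 0.14. Aqp1 went from 0.55 to 0.17 and Cubn from 0.59 to 0.20. Miox became more uneven, from 0.19 to 0.30, and was now highest in replicate 3. Ggt1 stayed at 0.32. Kap went from 1.47 to 1.24 and, relative to transporters, stood at 0.65, -2.30, -1.26 and -0.52 in replicates 1 to 4, still highest in replicate 1 and lowest in replicate 2.

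**Figure D4:**
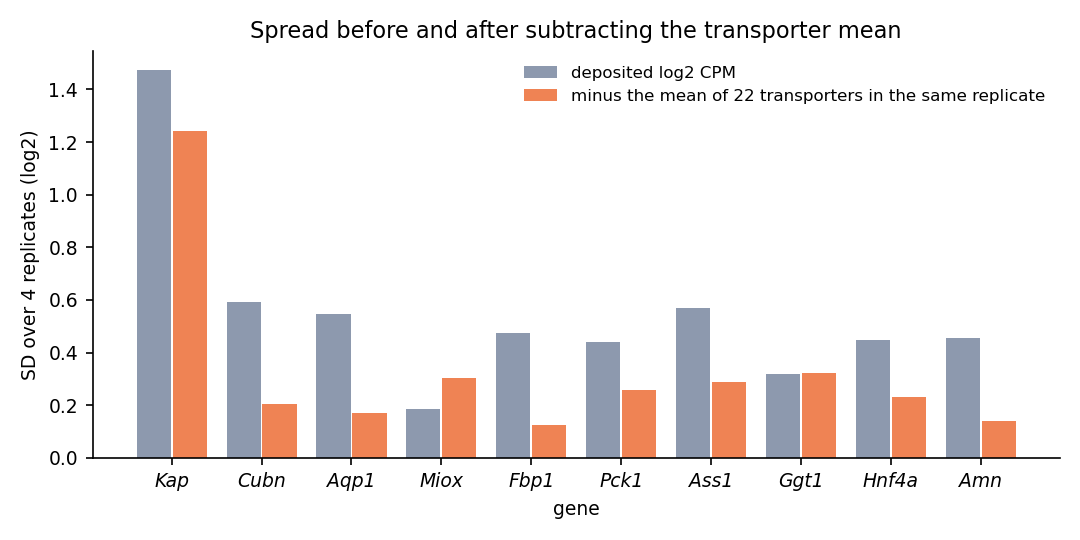
Bars give the SD over 4 replicates (log2, vertical axis) of each gene's deposited log2 CPM and of the same values after subtracting the mean of 22 transporters in the same replicate. Kap goes from 1.47 to 1.24, while Fbp1, Amn, Aqp1 and Cubn lie between 0.13 and 0.20 after subtraction.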

How the data were processed

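Polyadenylated RNA of sieved rat glomeruli was sequenced from stranded libraries, per the labels' protocols, and total RNA had an integrity number above 7. The submitters' processing notes name HISAT2, featureCounts, Subread, limma and the build Rnor_6.0, without versions or roles. The deposited values are log2 numbers for 13265 genes. In 4 rows the values were shifted across columns and these were left out. Each deposited log2 value matched log2 CPM with 0.5 reads added per gene, so reads were recovered: 100% of values lay within 0.01 of a whole read (largest deviation 0.0013). The number of value columns of no sample was 0.

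From the reads, CPM over the listed genes, exact intervals and chi-square tests against Poisson sampling (3 degrees of freedom) were computed in Python 3.11.15 with scipy 1.17.1. Variance above the abundance trend was tested on log2(CPM + 1) with limma 3.58.1 in R 4.3.3, by an intercept-only fit. Both were adjusted by Benjamini-Hochberg over 13261 genes at 0.05. Both were tested on simulated data, where the limma test missed most genes changed 2-fold. PCR reads carry no molecular identifiers, so intervals cover counting error only. Whether counting used strand is not given in the sources used here, so antisense reads could be included. Symbols shared by several rows (116 rows) were not used by name.

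The genes and lists were chosen with earlier results of these data known. Named genes were the 10 members, the genes of largest and smallest range in each list, and the 5 genes nearest to Kap and to the mean of the other 9; Lrp2, Pck2, Mme, Slc5a1, Cyp4a2, Fkbp5, Calb1, Spp1, Lcn2, Timp2, Igfbp7, Umod, Pdzk1, Pdgfrb, Itga8 and Gata3 were added after their values were seen. Some genes that this rule names are not reported here. Alternatives were median-of-ratios scaling, a total without mitochondrial genes, a log2 minimum of 1, the deposited log2 values in place of log2(CPM + 1) and the reverse, a robust limma prior, medians over members, and leaving out each replicate.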

Additional observations from a re-analysis of the deposited data

Results flagged for a closer look

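In Ggt1, once the transporter mean was subtracted, replicate 1 lay apart from the rest: its distance to the nearest replicate was 0.884 of the full range, beyond Dixon's 95% limit. Of 71 results examined this way 1 passed, where chance alone gives about 1 in 20, or 3.55. Replicate 1 stood at -0.49, and replicates 2 to 4 stood at 0.14, 0.19 and 0.11 on the log2 scale. In CPM the gene was lower in replicate 1 than in replicates 2 and 4, although 6 of the 9 members other than Kap and 13 of the 22 transporters were highest there.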

How the results depend on the processing

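Another setting was tried 175 times. Of the outcomes, 163 kept to their criterion, 12 did not and 0 turned round. For levels, ranges and means the criterion was a shift smaller than the SD over the 4 samples. Leaving out a replicate cannot move a mean over samples that far, so those outcomes were fixed in advance and do not show stability. The number of genes ordered as Kap, 1251 over 6 pairs, was 2858 to 3161 when a replicate was left out, since only 3 pairs then have to match. The number with at least a 2-fold range, 1214, was 511 to 1051 when a replicate was left out, with 511 without replicate 1 and 793 without replicate 3. The other 6 were ranges of single members: without replicate 3, Cubn fell to 0.37, Aqp1 to 0.53, Fbp1 to 0.52, Pck1 to 0.53 and Amn to 0.47, and without replicate 1, Ass1 fell to 0.67. Leaving out a replicate cannot widen a range. The scalings shifted the median of all genes by at most 0.05 (log2) in any replicate and left all 9 members lowest in replicate 3 and 0 of 9 in the full order of Kap. limma called 0 genes at an adjusted p under 0.05 under each alternative run; at an unadjusted p under 0.05 its main count was 725, and the chi-square test called 7326 to 9312. Each member had at least 369 reads in every sample. Depth was not varied, so whether depth or the number of samples limits the results more was not tested. No paired analysis was possible because the samples analysed form a single group.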

Other observations

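Genes of tubule injury were mixed. Of 11 measured, 7 were highest in replicate 2, as were 2827 of all 13261 genes. In replicate 3, 4 of the 11 were lowest, beside 19.6% of all genes, and 0 had the order of Kap, beside 9.43%. Spp1, osteopontin, had 9.10, 10.88, 9.61 and 10.15 log2 CPM in replicates 1 to 4, and Lcn2, an iron-carrier protein gene of injured tubules, had 3.65, 4.87, 3.02 and 3.33. Replicate 2, where Kap was lowest, was the highest sample for both. It was the lowest sample for 3 others of the 11, Timp2, Igfbp7 and Vcam1, beside 31.5% of all genes. Timp2 and Igfbp7 matched Kap in 5 of 6 pairs, but the share of all genes doing so was not computed. Vcam1, an adhesion gene, had the largest range, 1.93, from 4.84 in replicate 2 to 6.76 in replicate 4, and Vim, vimentin, the smallest, 0.21. The 9 leukocyte genes measured had ranges from 0.34 for Cd68, a macrophage gene, to 1.46 for Cd3e, a T cell gene. The lists are not independent of genes made by other cells, and no test of a difference between lists was run.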
